A study of Homo sapiens with 24 samples.

Results

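HCT116 oxpl-R cells were examined for the interaction of E1A induction with oxaliplatin, that is, for how far the expression of each gene under the combination departed from the sum of the 2 single effects on the log2 scale. HCT116 is a human colorectal adenocarcinoma cell line, and HCT116 oxpl-R is its derivative selected by repeated pulses of a high dose of oxaliplatin, a platinum drug that crosslinks DNA. The 12 HCT116 oxpl-R libraries of the 24 RNA-seq libraries in the series were taken by their labels, with 3 replicates, called biological in the labels, in each of 4 groups. All 12 carried the TetOn-E1A construct, in which the adenovirus 5 E1A gene is switched on by doxycycline. Control cells received neither agent, E1A cells received 0.5 µg/mL doxycycline, oxaliplatin cells received 25 µM oxaliplatin for 24 h, and the combination cells received doxycycline 3 h before the same oxaliplatin treatment. For the E1A cells the labels, as read here, give the same 3 h figure and no total time in doxycycline. If that time differed from the time in the combination cells, its effect cannot be told apart from the interaction. The other 12 libraries are parental HCT116 cells under the same 4 treatments and were used only where the lines were compared. No group received doxycycline without carrying the construct, so an effect of doxycycline and an effect of E1A cannot be told apart. The labels do not say whether these were separate cultures, so the p-values measure the spread between these libraries, and HCT116 oxpl-R is 1 selected line.

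E1A is an early adenovirus protein that binds the retinoblastoma family (RB1, RBL1, RBL2) and the acetyltransferases EP300 and CREBBP. Release of E2F factors from the retinoblastoma proteins switches on genes of the G1/S transition and of DNA replication, and E2F1 is itself among these targets. Damage by platinum drugs stabilises p53, which induces CDKN1A (p21), an inhibitor of cyclin-dependent kinases that keeps the retinoblastoma proteins active and E2F targets low.

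The libraries held 24838095 to 37927720 estimated counts in the count table. The deposited tables have a row for the transgene, and its normalized counts (estimated counts scaled to a common library size by TMM factors) separated the groups as labelled. They were 192, 225 and 251 in the control libraries, 347, 279 and 271 with oxaliplatin, 18314, 17766 and 25474 with E1A, and 15899, 16516 and 21046 with the combination. The transgene did not pass the test between the combination and E1A alone (log2 difference −0.20 ± 0.20 SE, adjusted p = 0.737). The 10 colorectal epithelial markers summed to 159075 to 492595 normalized counts per library. Of these 10, 8 had a mean of at least 10 normalized counts, and at most 1 was at 0 in a library. The keratins KRT8 and KRT18 and EPCAM were abundant in all 12 libraries, with 127420 to 139680 normalized counts of KRT8 in the control. By contrast, 5 endothelial markers summed to 1.72 to 26.7, 6 leukocyte markers to 34.1 to 167 and 7 fibroblast markers to 426 to 1592 counts per library. The highest fibroblast sum was in combination replicate 3. Oxaliplatin replicate 1 stood apart, since protein-coding mitochondrial transcripts took 0.916% of its counts against 9.98% to 16.8% in the other 11 libraries. The noncoding RNA RN7SK was also low in the 3 oxaliplatin libraries (48, 0 and 147 counts) and in combination replicate 3 (63 counts), against 743 to 1999 in the remaining libraries. The part of the RN7SK difference in the results was not tested, and values without oxaliplatin replicate 1 are given below for the genes with the smallest p-values and for the lists it touches.

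The sequences before the starts of 5 genes are shown. Of these, 4 are among the 12 genes with the smallest interaction p-values in the positive direction, and the mitotic kinase gene PLK1 is from the panel. TICRR, with a smaller p-value than CDC25A, also had a sequence and is not shown. Each is the 250 bases before the RefSeq start (GRCh38.p14, written 5′ to 3′ on the strand of the gene), in lower case with matches in capitals. The search covered both strands for the E2F-type letters TTTCCCGC, TTTCGCGC, TTTGCCGC and TTTGGCGC and for TTTGAA, the core of the cell cycle homology region found in promoters of mitotic genes. The windows are chr20:33686386-33686635 on the minus strand for E2F1, chr16:88803539-88803788 on the plus strand for CDT1, chr3:48188418-48188667 on the minus strand for CDC25A, chr19:14136590-14136839 on the minus strand for ASF1B and chr16:23678639-23678888 on the plus strand for PLK1.
E2F1: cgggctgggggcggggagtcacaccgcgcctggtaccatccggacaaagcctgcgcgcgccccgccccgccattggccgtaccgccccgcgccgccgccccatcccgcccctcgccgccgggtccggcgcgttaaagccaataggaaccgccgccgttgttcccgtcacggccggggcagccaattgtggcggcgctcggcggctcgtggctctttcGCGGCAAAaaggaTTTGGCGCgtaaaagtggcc
CDT1: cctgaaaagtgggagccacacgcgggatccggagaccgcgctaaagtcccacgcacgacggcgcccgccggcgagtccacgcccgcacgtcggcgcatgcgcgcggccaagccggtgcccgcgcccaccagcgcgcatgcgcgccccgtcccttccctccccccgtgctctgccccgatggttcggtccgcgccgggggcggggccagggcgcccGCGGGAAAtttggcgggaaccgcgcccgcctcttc
CDC25A: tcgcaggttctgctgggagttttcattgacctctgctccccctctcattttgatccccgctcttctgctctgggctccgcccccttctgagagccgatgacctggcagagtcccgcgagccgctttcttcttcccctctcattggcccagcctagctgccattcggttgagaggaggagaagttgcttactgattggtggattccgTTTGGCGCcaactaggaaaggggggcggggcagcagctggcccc
ASF1B: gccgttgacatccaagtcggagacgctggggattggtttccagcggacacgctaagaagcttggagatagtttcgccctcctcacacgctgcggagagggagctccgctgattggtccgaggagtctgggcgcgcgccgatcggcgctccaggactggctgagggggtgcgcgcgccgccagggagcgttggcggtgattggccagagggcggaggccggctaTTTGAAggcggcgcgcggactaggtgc
PLK1: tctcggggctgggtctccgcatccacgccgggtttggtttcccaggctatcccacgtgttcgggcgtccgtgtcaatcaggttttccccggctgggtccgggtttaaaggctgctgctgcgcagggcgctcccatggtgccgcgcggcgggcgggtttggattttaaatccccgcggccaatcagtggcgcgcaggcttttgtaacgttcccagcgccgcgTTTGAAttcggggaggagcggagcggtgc
E2F1 held 2 E2F-type matches within 33 bases of its start, CDT1 held 1 and CDC25A held 1, whereas ASF1B and PLK1 held TTTGAA at 27 and 29 bases and none of the E2F-type letters. Over 35116 promoters of this length, 2.79% held an E2F-type match and 13.3% held TTTGAA. Among the E2F and replication genes that were tested, 36 had a promoter in the table, and 15 of these (41.7%) held an E2F-type match, against 4.76% of all tested genes with a promoter. Among the G2 and M phase genes, 15 of 27 (55.6%) held TTTGAA, against 13.5% of all tested genes. Among the 12 genes with the smallest p-values in the positive direction, 3 of 9 with a promoter (33.3%) held an E2F-type match. All 3 of these are shown here. In the negative direction it was 1 of 10 (10%). These matches describe the sequence and are not measured binding sites. MCM5, MCM4, TONSL and CCNE2 had no entry.

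No gene passed the threshold of adjusted p < 0.05 for the interaction (edgeR quasi-likelihood test, Benjamini-Hochberg adjustment), so 0 of 21575 tested genes (0%) were called. At an unadjusted p under 0.05 there were 568 genes (2.63%), of which 368 (1.71%) had a positive and 200 (0.927%) a negative log2 interaction. A positive value means that the combination was higher than the sum of the single log2 effects predicts. The median log2 interaction over all tested genes was −0.01, 49% of genes were positive, and the median SE was 0.54, so that the interaction was measured less precisely than the oxaliplatin effect alone (median SE 0.29). DESeq2 called 16 genes on the same counts, 15 of them positive, and 9 genes were called by DESeq2, by a fit on all 24 libraries and by a fit with the replicate number as a block. These 9 were ASF1B, CDC25A, CDT1, E2F1, MCM4, MCM5, TICRR, TONSL and TREX1. The single comparisons called 35 genes for E1A alone (0.162%), 1113 for oxaliplatin alone (5.16%), 647 for the combination against the control (3%), 218 for E1A under oxaliplatin (1.01%) and 457 for oxaliplatin under E1A (2.12%, with 1.31% higher and 0.811% lower). Therefore, the genes below are described by their values, and none of them is called an interaction in the main test.

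The smallest p-value belonged to E2F1, the transcription factor that drives entry into S phase. Its normalized counts were 2571, 3033 and 2949 in the control libraries, 4837, 3635 and 4008 with E1A, 725, 598 and 626 with oxaliplatin, and 3135, 2428 and 3362 with the combination. Thus, E2F1 was low only in the oxaliplatin libraries, and the combination libraries overlapped the control. Oxaliplatin alone reduced E2F1 to 22.8% of the control mean (log2 fold change −2.13 ± 0.19 SE, adjusted p = 9.35e-07, edgeR quasi-likelihood test). E1A alone did not pass the test (0.55 on the log2 scale, adjusted p = 0.639), and the combination stood at 104% of the control (0.06, adjusted p = 0.967). The sum of the single log2 effects predicts 948 normalized counts under the combination, and the measured mean was 2975 ± 487 (SD, n = 3), which is 3.14 times the prediction. The log2 interaction was 1.65 ± 0.26 SE with an adjusted p = 0.0722. Without oxaliplatin replicate 1 it was 1.74 and passed (adjusted p = 0.032), and without E1A replicate 1 it was 1.77 and passed (adjusted p = 0.0325).

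**Figure D1:**
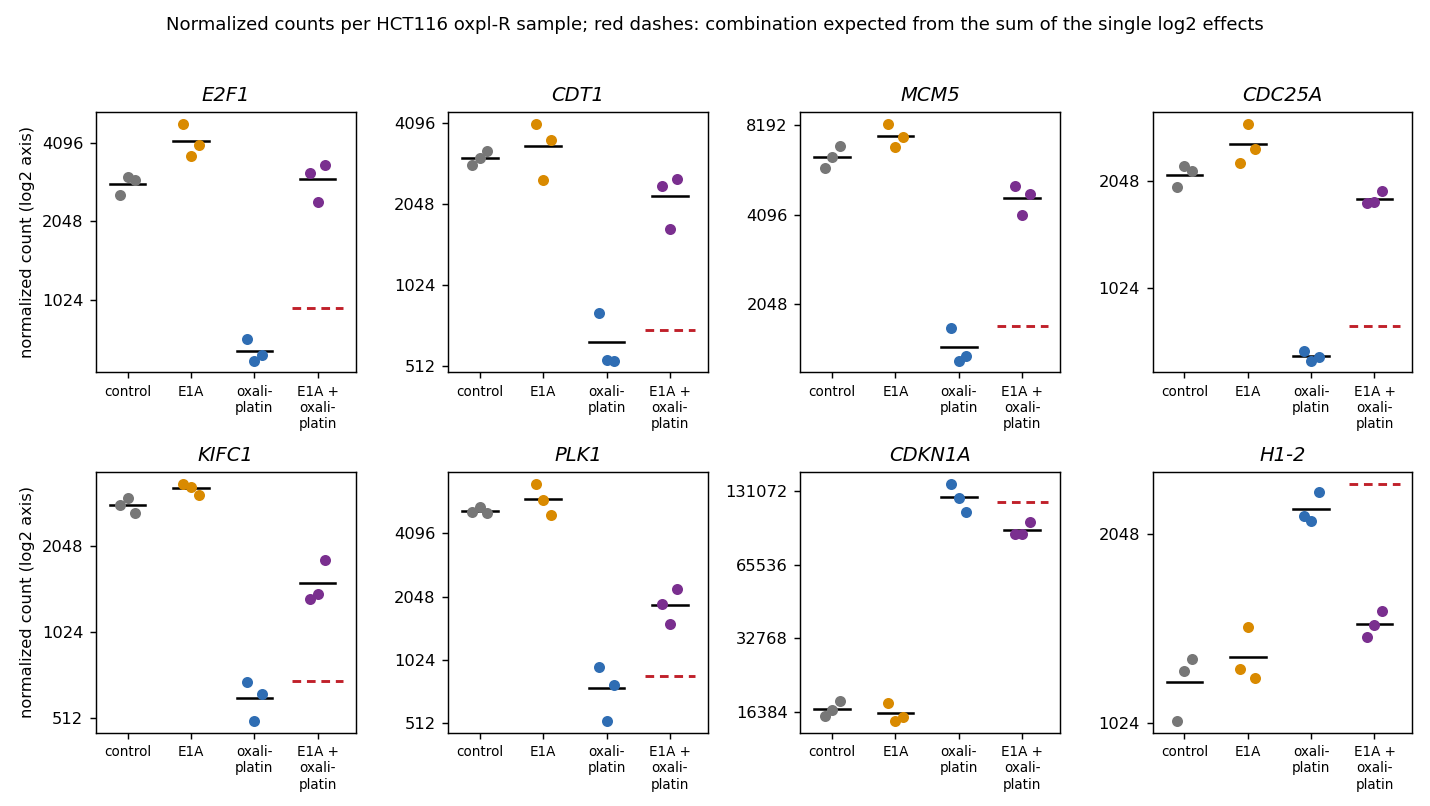
Normalized counts of 8 genes (log2 vertical axis) in each of the 12 HCT116 oxpl-R libraries, with points for libraries, black bars for group means (n = 3) and red dashes for the combination that the sum of the single log2 effects predicts. In E2F1, CDT1, MCM5, CDC25A, KIFC1 and PLK1 the 3 combination libraries lie above the dashes, and in CDKN1A and H1-2 they lie below.

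Among the other genes with small p-values were several of replication licensing. CDT1 loads the MCM helicase onto origins, and it had 2862, 3028 and 3235 normalized counts in the control, 4076, 2509 and 3548 with E1A, 803, 536 and 535 with oxaliplatin, and 2397, 1646 and 2545 with the combination. The oxaliplatin libraries of CDT1 lay below all others, at 20.5% of the control mean, and the combination reached 72.2%. Its log2 interaction was 1.66 ± 0.31 SE (adjusted p = 0.148). MCM5, a subunit of that helicase, went from 5861, 6423 and 6950 in the control to 1705, 1321 and 1366 with oxaliplatin and to 5107, 4074 and 4802 with the combination, while E1A alone gave 8280, 6925 and 7476. The 3 combination values of MCM5 fell between the oxaliplatin and the control values without touching either group. The log2 interaction of MCM5 was 1.43 ± 0.25 SE (adjusted p = 0.131), and without oxaliplatin replicate 1 it was 1.56 and passed (adjusted p = 0.032). MCM4, another helicase subunit, had a log2 interaction of 1.28 ± 0.24 SE (adjusted p = 0.148), with 23.7% of the control mean under oxaliplatin and 61.8% under the combination. TICRR, which helps to activate the helicase at origins, had 1.48 ± 0.28 SE (adjusted p = 0.175), at 17.5% and 55.7% of the control.

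CDC25A, the phosphatase that activates CDK2, had 1967, 2255 and 2180 normalized counts in the control, 2311, 2970 and 2520 with E1A, 680, 639 and 653 with oxaliplatin, and 1772, 1789 and 1924 with the combination. Its replicates were tight, and the combination was 2.28 times the prediction (log2 interaction 1.19 ± 0.24 SE, adjusted p = 0.208). ASF1B, a chaperone of histones H3 and H4 at replication forks, had 1024, 921 and 1205 normalized counts with oxaliplatin against 4070, 2882 and 3818 with the combination, and 4191, 4540 and 4171 in the control. The combination values of ASF1B overlapped neither the control nor the oxaliplatin libraries, and the log2 interaction was 1.42 ± 0.26 SE (adjusted p = 0.148). TONSL, a reader of newly replicated chromatin, and the DNA exonuclease TREX1 had log2 interactions of 1.16 and 1.63 (both adjusted p = 0.233). The remaining 3 of the 12 genes with the smallest p-values in the positive direction are mitotic. SKA1, which couples kinetochores to microtubules, had 1.4 ± 0.28 SE (adjusted p = 0.229), and the spindle kinesins KIFC1 and KIF18B had 1.14 and 1.12 (both adjusted p = 0.638). DESeq2 called all 3 (adjusted p = 0.00111, 0.0203 and 0.0277), and the fit on all 24 libraries called KIFC1 (adjusted p = 0.0456).

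All 12 genes had the same make-up in the single comparisons. Each fell with oxaliplatin alone, none was called for E1A alone, and all 12 were called higher for the combination against oxaliplatin. For E2F1 that last difference was 2.20 ± 0.19 SE (adjusted p = 3.95e-06), for CDT1 it was 1.81 ± 0.23 SE (adjusted p = 0.000224), and for TONSL, with the smallest difference of the 12, it was 1.14 ± 0.17 SE (adjusted p = 0.00161). These comparisons share libraries with the interaction and are not independent of it. Without oxaliplatin replicate 1 the log2 interactions of the 12 lay between 1.2 and 1.88, and all but E2F1 and MCM5 again missed the threshold. On normalized counts without the log, the combination also exceeded the sum of the single differences in 12 of 12 genes. These genes were picked by the same values, so this is not independent support. The 12 genes with the smallest p-values in the negative direction kept their sign as well (12 of 12). Among those are ACTA1 and ACTC1, whose values rest on 1 library.

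Over the whole list of E2F targets and DNA replication genes, 41 of 43 members were tested, and TYMS and UHRF1 were not in the tables used here. None was called for the interaction, but all 41 had a positive log2 interaction with a median of 0.97 (range 0.08 to 2.36), against −0.01 and 49% positive over all genes, and 33 of 41 had an unadjusted p under 0.05 with a positive sign, where the background is 1.71%. The list was chosen with earlier results of these data known and includes genes named above by their p-values. These shares are therefore a description and not independent support. Leaving out each library in turn moved the median between 0.83 and 1.06, and the number of positive members between 39 and 41. Oxaliplatin alone reduced 36 of the 41 (2.5% of all genes were called lower), and the combination reduced 2 against the control (0.932% of all genes), which were MCM4 (log2 fold change −0.69, adjusted p = 0.026) and the origin recognition subunit ORC1 (−1.13, adjusted p = 0.0039). The median member stood at 33% of its control mean with oxaliplatin, 75.8% with the combination and 115% with E1A. None of the 41 was called for E1A alone (0.162% of all genes were called), with a median log2 fold change of 0.21. Under oxaliplatin, 29 were called higher with E1A than without (0.978% of all genes were called higher). In 34 of the 41 the 3 combination libraries lay above the 3 oxaliplatin libraries (7.59% of all genes), in 36 the oxaliplatin libraries lay below the control (9.66%), and in 33 both held (3.44%). The combination libraries overlapped the control in 19 members (77.6% of all genes).

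**Figure D2:**
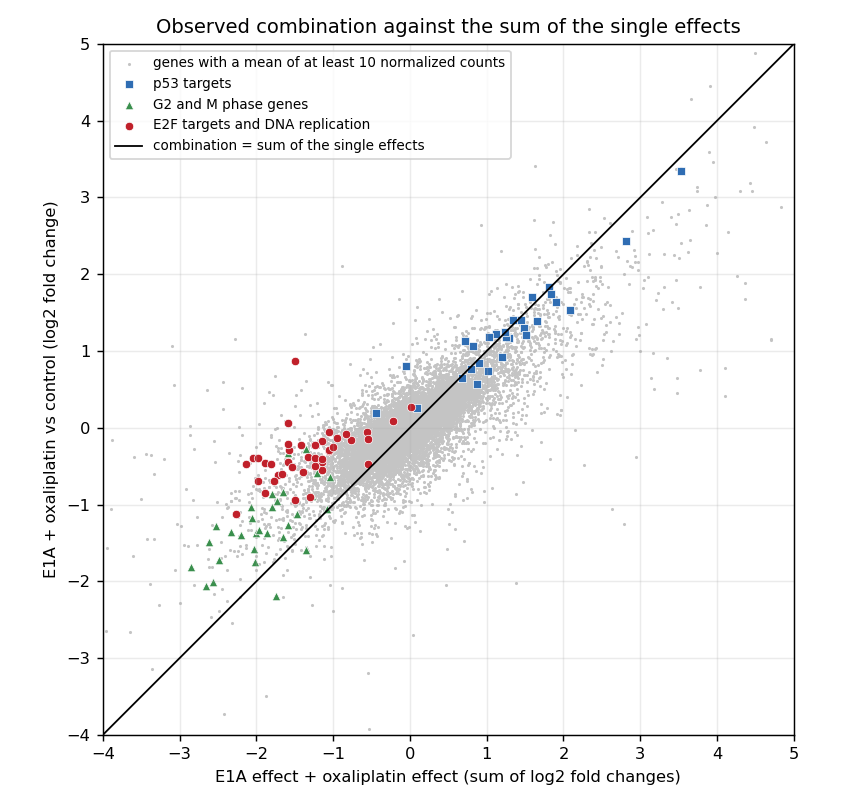
Log2 fold change of the combination against the control (vertical axis) plotted against the sum of the log2 fold changes of E1A alone and oxaliplatin alone (horizontal axis) for 13320 genes with a mean of at least 10 normalized counts. The line marks equality, and all 41 E2F and replication genes and 29 of 31 G2 and M phase genes lie above it, against 11 of 28 p53 targets.

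Within the list, CCNE2 (cyclin E2, an activator of CDK2) had the largest log2 interaction, 2.36 ± 0.57 SE (adjusted p = 0.725), with uneven replicates under E1A and oxaliplatin. It had 796, 834 and 811 normalized counts in the control, 335, 886 and 1400 with E1A, 107, 273 and 426 with oxaliplatin, and 1494, 1453 and 1502 with the combination. The combination libraries of CCNE2 lay above every other library, at 182% of the control mean, although the combination did not pass against the control (adjusted p = 0.355). Without E1A replicate 3 the CCNE2 interaction was 2.89 and passed (adjusted p = 0.033). The related CCNE1 had a log2 interaction of 0.31 ± 0.24 SE and passed in neither single comparison. CDC6, which loads the MCM helicase with CDT1, and RRM2, the regulated subunit of ribonucleotide reductase, had 1.10 ± 0.35 SE and 0.77 ± 0.28 SE (both adjusted p = 1). RRM2 had 9533, 10472 and 8126 normalized counts in the control, 3097, 2861 and 3954 with oxaliplatin, and 9061, 7133 and 6886 with the combination, so that the combination again lay above oxaliplatin without overlap. At the other end of the list were PCNA, the sliding clamp, at 0.26 ± 0.32 SE, which oxaliplatin did not reduce (log2 fold change −0.06), and RRM1 at 0.08 with an SE of 1.14. PCNA is also a known p53 target. Apart from E2F1, CCNE1, CCNE2, CDC6, RRM2 and the genes with the smallest p-values, the list members named were chosen after their values were seen.

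G2 and M phase genes also had a positive median, and the difference between the lists was not tested. Of 33 members 31 were tested, 29 had a positive log2 interaction, the median was 0.63 (range −0.45 to 1.26), and 13 had an unadjusted p under 0.05, all positive (1.71% of all genes). That median was 0.49 without oxaliplatin replicate 1, 0.36 without oxaliplatin replicate 2 and 1.02 without oxaliplatin replicate 3. Oxaliplatin alone reduced 27 of the 31 (2.5% of all genes), and the combination still reduced 19 against the control (0.932%), with a median level of 25.3% of the control under oxaliplatin and 41.1% under the combination. For E1A, 9 of them were called higher under oxaliplatin (0.978% of all genes) and none was called without it (0.162%). PLK1, the kinase that drives mitotic entry and spindle assembly, had 5178, 5432 and 5094 normalized counts in the control, 7018, 5894 and 4987 with E1A, 943, 525 and 779 with oxaliplatin, and 1889, 1511 and 2222 with the combination. PLK1 stayed at 35.8% of its control mean under the combination, with a log2 interaction of 1.13 ± 0.30 SE (adjusted p = 1). CCNB1 (cyclin B1) had 0.81 ± 0.47 SE, and its replicates spread widely, from 4844 to 9032 in the control and from 1853 to 3858 with the combination. The largest value of the list belonged to MYBL2, chosen after its value was seen, a transcription factor that is itself an E2F target (1.26 ± 0.29 SE, adjusted p = 0.638). TOP2A and CENPF were the 2 negative members (−0.24 and −0.45).

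Fanconi anemia and homologous recombination genes, which repair interstrand crosslinks, came next, with 19 of 22 tested members positive and a median log2 interaction of 0.49. Oxaliplatin alone reduced 9 of them (2.5% of all genes) and the combination 2 (0.932%), and E1A raised 4 under oxaliplatin (0.978%). Among them were the exonuclease EXO1 (1.64) and the Fanconi anemia core complex member FANCA (0.87), given as log2 differences between the combination and oxaliplatin and chosen after their values were seen. Of the 15 G1 cyclins, CDKs and CDK inhibitors, 3 were raised by E1A under oxaliplatin (0.978% of all genes were called higher). They were CCNE2, the CDK4/6 inhibitor CDKN2C (1.71) and cyclin D3, CCND3 (0.80). Among the 13 tested host factors that E1A binds, none was called for E1A without or with oxaliplatin, near the shares over all genes (0.162% and 1.01%). Oxaliplatin alone reduced 1 of them (2.5% of all genes), the retinoblastoma relative RBL1 (log2 fold change −1.48, adjusted p = 0.0027), whose log2 interaction was 0.80 ± 0.39 SE.

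**Figure D3:**
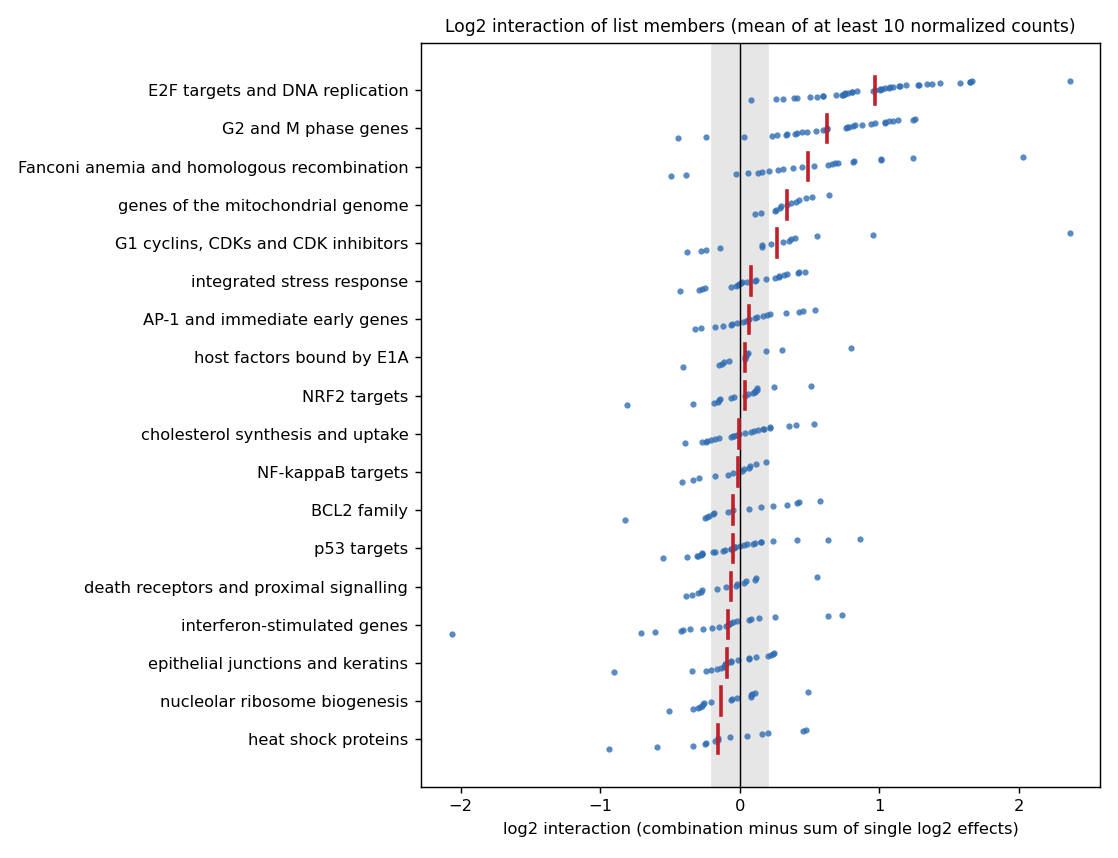
Log2 interaction of the members of 18 gene lists with a mean of at least 10 normalized counts (points), with the list median as a red bar. The grey band spans the middle 50% of 13320 genes, from −0.20 to 0.21, and the medians of the E2F and replication, G2 and M phase, Fanconi anemia and mitochondrial genome lists and of the G1 list lie to its right.

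The p53 targets had values on both sides of 0. Of 30 members 28 were tested, 11 were positive and 17 negative, and the median log2 interaction was −0.05. Oxaliplatin alone raised 24 of the 28 (2.66% of all genes were called higher), and the combination also raised 24 (2.07%). None was called for E1A without or with oxaliplatin (0.162% and 1.01% of all genes), with median log2 fold changes of −0.18 and −0.22. CDKN1A had 15733, 16640 and 18218 normalized counts in the control, 17787, 15082 and 15662 with E1A, 139670, 122730 and 107220 with oxaliplatin, and 87503, 87631 and 97986 with the combination. Thus, all 3 combination libraries were below all 3 oxaliplatin libraries, but at 540% of the control mean, and the difference between combination and oxaliplatin did not pass (log2 difference −0.44 ± 0.20 SE, adjusted p = 0.536). The log2 interaction of CDKN1A was −0.38 ± 0.28 SE (adjusted p = 1). MDM2, the ubiquitin ligase that degrades p53, had 17854, 20966 and 24077 normalized counts with oxaliplatin and 18729, 17244 and 10055 with the combination, against 4519 to 5368 in the control. GDF15, a secreted stress factor, FAS, a death receptor, and BBC3 (PUMA), a BH3-only inducer of apoptosis, had log2 interactions of 0.05 ± 0.34 SE, 0.11 ± 0.46 SE and 0.41 ± 0.32 SE. The signs for GDF15 and FAS turned when single libraries were left out.

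The genes called for E1A alone had a median log2 interaction of −0.08 (range −3.01 to 0.91). There were 35 of them, all higher, the transgene included, and 29 of these (82.9%) were also called higher for E1A under oxaliplatin, where they made up 13.7% of 211 genes. These 2 comparisons share no libraries. Among immediate early genes, 3 of 20 rose with E1A alone (0.162% of all genes were called higher). These were EGR1, EGR3 and JUNB, which encode early-response transcription factors. EGR1 had 1083, 937 and 895 normalized counts in the control, 5617, 3613 and 5569 with E1A, 816, 1020 and 1119 with oxaliplatin, and 5152, 4392 and 5966 with the combination. EGR1 passed the test for oxaliplatin neither without nor with E1A, and its log2 interaction was 0.05 ± 0.28 SE. JUNB had 0.19 ± 0.34 SE, and the panel genes ATF3, JUN and MYC had −0.18, 0.06 and 0.11. ATF3, a stress-induced transcription factor, rose with oxaliplatin alone (log2 fold change 1.23, adjusted p = 0.000814) and with the combination (1.56, adjusted p = 0.000171). MYC fell in the combination against the control (−0.84, adjusted p = 0.022) with 10866, 11834 and 10489 normalized counts in the control, 7424, 6844 and 5292 with E1A, 9214, 11366 and 8574 with oxaliplatin, and 6732, 7039 and 4782 with the combination.

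The other lists had medians near that of all genes. Integrated stress response genes had a median log2 interaction of 0.08, with 10 of 22 lower under oxaliplatin alone (2.5% of all genes) and 9 under the combination (0.932%). The medians were 0.01 for the BCL2 family, −0.10 for death receptors, 0.02 for NF-kappaB targets, −0.18 for interferon-stimulated genes, −0.09 for epithelial junctions and keratins, 0.00 for cholesterol synthesis, 0.04 for NRF2 targets, −0.16 for heat shock proteins and −0.13 for nucleolar ribosome biogenesis, and none of these lists had a member called for the interaction. CDH1 (E-cadherin) had −0.34 ± 0.26 SE. All 13 protein-coding genes of the mitochondrial genome were positive with a median of 0.34, but without oxaliplatin replicate 1 the median was −0.15.

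In the negative direction the 12 genes with the smallest p-values had adjusted p-values from 0.289 to 1, and they formed no one of the fixed lists. Linker histone H1-2 is the most abundant of them apart from ACTA1, with 1033, 1240 and 1297 normalized counts in the control, 1249, 1457 and 1210 with E1A, 2189, 2145 and 2385 with oxaliplatin, and 1404, 1467 and 1544 with the combination. The oxaliplatin libraries of H1-2 lay above all others, and its log2 interaction was −0.74 ± 0.24 SE (adjusted p = 1). Histone H4C14 had 95.3, 126 and 119 in the control, 364, 623 and 628 with E1A, 257, 244 and 213 with oxaliplatin, and 469, 617 and 552 with the combination. It rose with each agent alone, and the combination was called above oxaliplatin (log2 difference 1.2, adjusted p = 0.0177) while its libraries overlapped those with E1A (log2 interaction −1.04 ± 0.34 SE, adjusted p = 1). TECPR1, a lysosomal and autophagosomal factor, had the smallest p-value of this direction, with 512, 472 and 651 in the control, 872, 1113 and 1178 with E1A, 1493, 1056 and 733 with oxaliplatin, and 819, 761 and 618 with the combination (−1.53 ± 0.34 SE, adjusted p = 0.289), and DESeq2 called it (adjusted p = 0.0231). COL15A1, a collagen, rose with oxaliplatin alone (log2 fold change 3.67) from 6.67 to 85.7 mean normalized counts and stood at 76.2 under the combination. The muscle actins ACTA1 and ACTC1 entered through 1 library, oxaliplatin replicate 2, with 31451 and 194 normalized counts, and their log2 interactions of −8.14 and −7.53 became 1.85 and 1.49 without it. The others were STAT5B, TRAPPC9, IGDCC4, DNAH10, MYH3 and the readthrough transcript ARHGAP11A-SCG5, of which the last 4 had means under 100 normalized counts in every group. Reads of ARHGAP11A-SCG5 cannot be told from those of its 2 parent genes by counts alone.

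The parental line gave the closest comparison, because it received the same 4 treatments. In parental HCT116 cells, on normalized counts scaled over all 24 libraries, E2F1 had 2433, 2316 and 2852 in the control, 3452, 3356 and 3132 with E1A, 3671, 3271 and 3564 with oxaliplatin, and 4304, 3614 and 3385 with the combination. E2F1 was therefore not low in the parental oxaliplatin libraries, where its mean of 3502 ± 207 (SD, n = 3) compares with 639 ± 68.1 in HCT116 oxpl-R. In a fit on all 24 libraries the log2 interaction of E2F1 was 1.66 ± 0.24 SE in HCT116 oxpl-R and −0.28 ± 0.24 SE in HCT116, and the difference of 1.94 ± 0.34 SE did not pass (adjusted p = 0.0516). E2F1 did pass with DESeq2 (adjusted p = 3.49e-05), with filterByExpr (adjusted p = 0.04) and among genes with at least 10 counts in every library (adjusted p = 0.0189). In that fit 10 genes were called for the HCT116 oxpl-R interaction (0.0438% of 22833), all positive. No gene was called for the difference between lines (0%), with 633 genes (2.77%) at an unadjusted p under 0.05, 458 of them positive (2.01%), and 14 genes called by DESeq2. The differences were 1.80 ± 0.35 SE for ASF1B (adjusted p = 0.144), 1.95 ± 0.39 SE for CDT1 (adjusted p = 0.149) and 1.52 ± 0.34 SE for MCM5 (adjusted p = 0.401).

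**Figure D4:**
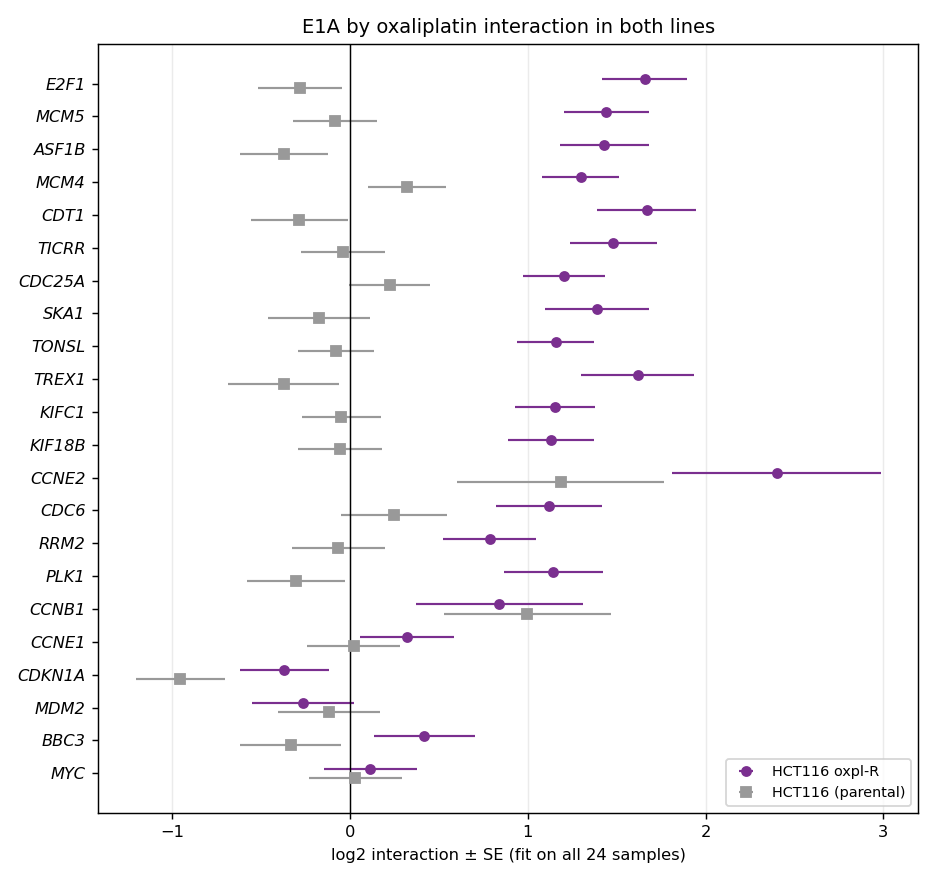
Log2 interaction (points) with its SE (bars) from the fit on all 24 libraries, for the 12 genes of smallest p in the positive direction and 10 genes of the panel, in HCT116 oxpl-R (purple circles) and parental HCT116 (grey squares). E2F1 lies at 1.66 and −0.28, whereas CCNB1, MDM2 and MYC lie close together in both lines.

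For the E2F and replication list, the median log2 interaction was −0.01 in parental cells, the difference between lines was positive for 39 of 41 members, and its median was 0.85 against 0.02 over all genes. For the G2 and M phase list it was positive for 24 of 31 with a median of 0.57. In the parental line oxaliplatin alone reduced 15 of the 41 E2F and replication genes and raised 1 (8.43% of all genes were called lower and 8.99% higher, 17.4% in all). None of the 41 was called higher there for E1A under oxaliplatin (0.0832% of all genes). These parental counts come from the fit on all 24 libraries, whereas the HCT116 oxpl-R counts for this list came from the fit on its own 12. The transgene was unevenly induced in the parental line. Replicate 1 of the parental combination group had 5826 normalized counts, against 15713 and 14447 in replicates 2 and 3. Without that library 6 genes passed the test of the difference, namely ASF1B, CDT1, E2F1, KLK11, MCM5 and SULF2, and E2F1 then differed by 2.05 (adjusted p = 0.0072). E2F1 also passed without HCT116 oxpl-R E1A replicate 1, oxaliplatin replicate 1 or combination replicate 2 (2.09, 2.03 and 2.07).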

How the data were processed

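RNA was measured in 24 libraries made from total RNA with an mRNA library kit and read as pairs. Per the labels, the submitters' processing notes name Trimmomatic, Salmon 1.6.0 and GRCh38. The authors deposited estimated counts per gene in 2 tables, summed from transcript estimates. The count table used here ran to SETP6 (33113 genes), so genes after SETP6 were taken from the second table (37967 genes), which is headed as TPM but whose columns sum to library sizes and was read as length-scaled estimated counts. Each table was fitted whole and separately, and adjusted p-values come from the fit of each table.

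Estimated counts were rounded, and genes with a count in any library were tested (18350 and 3225). A group-means model was fitted to the 12 HCT116 oxpl-R libraries with edgeR 4.0.16 (R 4.3.3, TMM scaling, quasi-likelihood F-test, two-sided), and each contrast was adjusted by the Benjamini-Hochberg method at 0.05. The interaction was combination − oxaliplatin − E1A + control. The difference between lines was fitted on all 24 libraries. The alternatives were DESeq2 1.42.0, limma 3.58.1 (log2 of the value plus 1 or 0.1 in the second table), RLE scaling and 2 filters. Others were a replicate block, a fit on all libraries, the second table and leaving out each library. Leaving out the mitochondrial genes was added after the data were seen. The scripts were tested on simulated data.

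The interaction as the subject, the 18 gene lists, the 4 marker lists and the panel (CDKN1A, MDM2, GDF15, FAS, BBC3, E2F1, CCNE1, CCNE2, CDC6, RRM2, CCNB1, PLK1, MYC, ATF3, JUN, CDH1) were chosen with earlier results of these data known. Besides the panel, the genes named were the 12 with the smallest p in each direction and a mean of at least 50 normalized counts in 1 group, since none was called. Overlapping and antisense genes were not separated beyond the authors' quantification.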

Additional observations from a re-analysis of the deposited data

How the results depend on the processing

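For the interaction, no call was made in the count table with RLE scaling, either filter or without the mitochondrial genes. Both limma fits, run on the second table, made no call either. The fold threshold was set on top of the main test, which had no call, so it could only give 0. DESeq2 called 10 genes in the count table and 6 after SETP6, the fit on all 24 libraries 7 and 3, and the second table used for all genes 1 (E2F1). Leaving out 1 library gave 0 to 2 calls, and apart from E2F1, MCM5 and CCNE2 these were the transcripts CENPBD2P, ALDH1A3-AS1 and LSM12P1. The departure on the linear scale was planned for called genes, and since none was called only its sign is given above, for genes that were not called. DESeq2 called 76 genes for E1A alone, 1690 for oxaliplatin alone, 1054 for the combination, 453 for the E1A effect under oxaliplatin and 814 for oxaliplatin under E1A, against 35, 1113, 647, 218 and 457. With 1 library left out these counts ranged from 14 to 65, 705 to 1283, 337 to 804, 113 to 280 and 278 to 608. Counts moved by over 1.5 times without control replicate 1, 2 or 3 or E1A replicate 1 or 3 for E1A alone (16, 14, 23, 21 and 65), without control replicate 1 or 2 for oxaliplatin alone (705 and 709), without control replicate 1 or 2 or any combination replicate for the combined effect (337, 395, 414, 411 and 385), without oxaliplatin replicate 2 or combination replicate 1 or 3 for the E1A effect under oxaliplatin (141, 127 and 113), and without combination replicate 2 for the oxaliplatin effect under E1A (278). The difference between lines had 14 calls by DESeq2, 1 with filterByExpr, 2 with at least 10 counts in every library and 0 to 6 with 1 library left out. The cause of these shifts was not tested.

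Libraries with the same replicate number tended to deviate from their group means together. Of 18 same-number correlations of these deviations 15 were over 0.1 (−0.14 to 0.45), and 10 of 12 libraries correlated best with their own number. The lowest correlation was −0.14 for number 1, 0.11 for number 2 and 0.20 for number 3. The rule used did not count this as pairing, and the main test had no block, which leaves this shared spread in its error. With the replicate number as a block, the interaction had 10 calls in the count table and 4 after SETP6. E2F1 (1.66, adjusted p = 0.0117) and CCNE2 (2.75, adjusted p = 0.0148) were among them. The 5 single comparisons had 61, 1922, 1327, 555 and 1067 in the order above, and the difference between lines had 1 (E2F1, adjusted p = 0.0289).

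Signs turned for weak values when 1 library was left out. The log2 interaction then ranged from −0.15 to 0.34 for GDF15, −0.0805 to 0.25 for JUN, −0.25 to 0.54 for FAS and −0.0099 to 0.24 for MYC, and from −10.6 to 1.85 for ACTA1 and −9.23 to 1.49 for ACTC1, the last 2 turning only without oxaliplatin replicate 2. E2F1 ranged from 1.53 to 1.78 over all alternatives. Depth limits weakly counted genes: the median SE was 0.54 over all genes and 0.34 over those with a mean of at least 10 normalized counts.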
